A study of Mus musculus with 77 samples.

Results

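In splenic B cells of female mice, 8000 stretches of the autosomes lay under peaks of H3K27me3 and under no peak of H2AK119Ub. They were chosen by the peak lists of mb1 WT cells at 24 h, which are B cells cultured with CpG as given below. A stretch was kept if it was at least 1 kb long, was covered by H3K27me3 peaks in 3 or more of 4 lists, and had no base under a peak in any of the 3 H2AK119Ub or 3 H3K27ac lists of the same cells. The stretches held 43.5 Mb, which was 37.6% of the bases in all 22094 pieces of 1 kb or more of the same H3K27me3 cover and 1.77% of the autosomal bases. They are called regions lacking H2AK119Ub here, and lacking means that no peak was listed. The 6742 pieces of the same cover with H2AK119Ub in 2 or 3 of the 3 lists, 52.0 Mb in all, are called regions with H2AK119Ub. The remaining pieces had H2AK119Ub in 1 list (7128) or an H3K27ac peak (224).

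The 77 libraries were made by CUT&RUN, a method that cuts out the DNA of antibody-bound nucleosomes, from CD23+ cells, CD23 being a marker of follicular B cells. The KO cells were deleted for Xist, the long non-coding RNA of the inactive X chromosome, which autosomal peaks cannot check. In the mb1 system the KO mice were Xist fl/fl and mb1-cre+ and the WT mice were mb1-cre+, so that both carried the Cre, which is expressed in the B lineage from its early stages. In the TAT-Cre system the KO cells came from Xist fl/fl mice and the WT cells from WT mice, and 80 µg of the cell-permeant enzyme was given for 45 min only before the culture. Cells were taken at 24 h, after culture with the TLR9 ligand CpG at 1 µM, or unstimulated at 0 h. The TAT KO cells at 0 h therefore still had the floxed gene, and in this system CpG, culture and TAT-Cre cannot be told apart. Each of the 24 groups had 3 libraries, except H3K27me3 in the mb1 system, with 4 for KO at 24 h, 4 for WT at 24 h, 5 for KO at 0 h and 4 for WT at 0 h. No source used here states the ages of the mice. The labels call the replicates biological without naming animals, and every p-value below therefore reflects only how much these libraries vary.

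H3K27me3 is placed by Polycomb repressive complex 2, whose catalytic subunit in dividing cells is mostly Ezh2, and H2AK119Ub is placed by complex 1 through Ring1a and Ring1b. At many silent developmental genes the pair of marks lie together over CpG-rich promoters, where each complex can be recruited by the mark of the other. H3K27ac cannot share a histone tail with H3K27me3, since both sit on the same lysine, and marks active promoters and enhancers.

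Promoters inside the regions ranged from very CpG-rich to without any CG. The 300-bp windows below, from 250 bases before to 50 bases after a transcription start, are RefSeq sequences of GRCm38.p6, the same build as mm10, and show that range. CG dinucleotides are in capitals, and each sequence reads 5′ to 3′ along the gene. Sema5b (chr16:35541112-35541411, plus strand) encodes a semaphorin that guides axons, Grb10 (chr11:12037371-12037670, minus strand) an imprinted adaptor that dampens insulin receptor signalling, and Ghsr (chr3:27371101-27371400, plus strand) the ghrelin receptor. Bcl11b (chr12:108003365-108003664, minus strand) encodes a transcription factor of T cell commitment. S100a8 (chr3:90668821-90669120, plus strand) and S100a9 (chr3:90695672-90695971, minus strand) encode the calprotectin subunits of neutrophils and monocytes. Cyp3a13 (chr5:137921570-137921869, minus strand) encodes a cytochrome P450 and Kcna10 (chr3:107182893-107183192, plus strand) a voltage-gated potassium channel. The window of Dock3 (chr9:107231860-107232159, minus strand) lay in a region with H2AK119Ub and is shown because the body of the gene held more bases of regions lacking the mark than any other.
Sema5b: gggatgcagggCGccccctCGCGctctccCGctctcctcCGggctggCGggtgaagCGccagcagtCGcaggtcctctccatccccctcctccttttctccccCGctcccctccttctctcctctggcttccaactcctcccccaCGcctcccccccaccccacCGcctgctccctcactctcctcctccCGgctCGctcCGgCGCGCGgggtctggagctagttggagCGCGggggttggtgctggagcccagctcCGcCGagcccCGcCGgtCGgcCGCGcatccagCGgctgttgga
Grb10: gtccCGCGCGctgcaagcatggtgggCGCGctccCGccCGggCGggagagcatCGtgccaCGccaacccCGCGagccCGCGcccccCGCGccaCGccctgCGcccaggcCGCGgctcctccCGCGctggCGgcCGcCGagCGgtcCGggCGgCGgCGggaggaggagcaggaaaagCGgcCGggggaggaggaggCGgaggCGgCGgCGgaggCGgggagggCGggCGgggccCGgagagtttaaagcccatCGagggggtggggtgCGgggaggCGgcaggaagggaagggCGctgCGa
Ghsr: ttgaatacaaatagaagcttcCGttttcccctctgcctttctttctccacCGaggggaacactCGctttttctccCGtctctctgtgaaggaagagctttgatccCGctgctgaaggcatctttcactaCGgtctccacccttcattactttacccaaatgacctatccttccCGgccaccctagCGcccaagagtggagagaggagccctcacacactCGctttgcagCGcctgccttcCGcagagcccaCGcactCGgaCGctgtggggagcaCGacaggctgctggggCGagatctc
Bcl11b: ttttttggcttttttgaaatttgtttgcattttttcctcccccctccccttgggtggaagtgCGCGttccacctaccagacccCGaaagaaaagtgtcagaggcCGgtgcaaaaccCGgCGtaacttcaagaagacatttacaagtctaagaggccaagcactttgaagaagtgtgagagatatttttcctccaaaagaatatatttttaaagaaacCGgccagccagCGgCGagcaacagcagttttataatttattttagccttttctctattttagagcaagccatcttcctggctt
S100a8: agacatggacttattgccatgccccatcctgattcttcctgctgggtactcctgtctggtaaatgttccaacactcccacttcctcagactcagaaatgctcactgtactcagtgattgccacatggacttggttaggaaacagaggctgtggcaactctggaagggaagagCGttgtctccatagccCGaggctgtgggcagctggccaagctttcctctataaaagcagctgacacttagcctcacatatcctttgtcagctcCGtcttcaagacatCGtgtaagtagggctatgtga
S100a9: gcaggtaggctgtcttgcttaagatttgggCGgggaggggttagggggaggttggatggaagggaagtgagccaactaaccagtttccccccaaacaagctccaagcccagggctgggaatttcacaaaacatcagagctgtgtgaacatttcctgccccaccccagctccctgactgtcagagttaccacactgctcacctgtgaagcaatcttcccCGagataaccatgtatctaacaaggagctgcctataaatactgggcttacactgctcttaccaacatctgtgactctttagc
Cyp3a13: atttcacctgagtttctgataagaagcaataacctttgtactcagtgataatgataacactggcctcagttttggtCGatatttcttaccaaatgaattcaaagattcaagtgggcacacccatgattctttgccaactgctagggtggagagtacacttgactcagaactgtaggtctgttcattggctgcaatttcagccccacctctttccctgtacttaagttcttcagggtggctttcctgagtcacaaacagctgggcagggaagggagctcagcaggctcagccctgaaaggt
Kcna10: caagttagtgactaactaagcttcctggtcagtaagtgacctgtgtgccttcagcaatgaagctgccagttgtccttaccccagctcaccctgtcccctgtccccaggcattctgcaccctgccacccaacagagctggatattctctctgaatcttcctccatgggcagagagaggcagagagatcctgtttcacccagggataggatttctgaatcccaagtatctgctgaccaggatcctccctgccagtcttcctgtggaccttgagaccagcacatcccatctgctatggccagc
Dock3: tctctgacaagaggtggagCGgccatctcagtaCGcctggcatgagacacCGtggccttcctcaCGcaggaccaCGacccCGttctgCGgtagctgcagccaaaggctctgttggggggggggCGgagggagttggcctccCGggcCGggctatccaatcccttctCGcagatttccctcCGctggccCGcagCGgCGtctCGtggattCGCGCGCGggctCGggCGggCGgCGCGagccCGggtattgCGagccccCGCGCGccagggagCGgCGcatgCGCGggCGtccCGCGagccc
The windows held 27 CG in Sema5b, 45 in Grb10, 16 in Ghsr, 9 in Bcl11b, 4 in S100a8, 2 in S100a9, 1 in Cyp3a13, 0 in Kcna10 and 37 in Dock3. Of all 20085 autosomal promoter windows, 21.5% held at least as many CG as that of Sema5b and 95.6% at least as many as that of Cyp3a13.

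The regions were short pieces at the edges of wider H3K27me3 domains or whole small domains. Their median length was 4346.5 bp (quartiles 2304 and 7300.5 bp), 933 were over 10 kb and 16 over 30 kb. An unbroken H3K27me3 stretch had no H2AK119Ub peak at all in 2397 regions (30.0%, 18.6 Mb), which had a median length of 7096 bp. A further 4331 regions (54.1%, 19.6 Mb, median 3318 bp) were the outer ends of stretches with H2AK119Ub elsewhere, and 1272 (15.9%, 5.27 Mb, median 2849.5 bp) lay between H2AK119Ub or H3K27ac peaks inside a stretch. In all, 5599 (70.0%) directly adjoined an H2AK119Ub peak. The whole-stretch regions lay a median of 19.5 kb from the nearest such peak.

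Some of this follows from the rule. Of the 9257 stretches of the H3K27me3 cover, 6265 (67.7%) held at least 1 region. All 4 lists covered 49.1% of the bases, and 2822 regions (35.3%) had no base in all 4 lists. Within 100 bp below the length limit were 170 pieces, the longest of 999 bp, and within 100 bp above it 200 regions, the shortest of 1000 bp. Just outside the limit on lists were 8392 pieces of 1 kb or more (30.2 Mb) covered in exactly 2 of 4 lists. The number of regions rested on single libraries of the rule, since 4757 were found without mb1 WT 24 h H3K27me3 replicate 1 and 4652 without replicate 4.

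The cells had the H3K27ac of B cells. All 10 B cell markers, among them Cd79a and Pax5, had an H3K27ac peak in all 24 libraries of that mark. At most 1 of 9 T cell markers, 1 of 9 myeloid markers, 1 of 6 NK cell markers and 1 of 4 erythroid markers had one in any library. The erythroid marker Hbb-bt had a peak in 19 of the 24 libraries and the NK cell marker Klrb1c in 11. The T cell markers Cd3d and Cd3g had one in 5 libraries each and the myeloid marker Itgam in 1. The number of peaks per list ran from 1955 to 19074 for H3K27me3, from 2004 to 40688 for H2AK119Ub and from 1336 to 10393 for H3K27ac, which moves every share below. The files give no read depth. One H3K27me3 library, mb1 KO 0 h replicate 5, carries a naive title and a stimulated treatment label. Its title placed it at 0 h. It had the highest H3K27me3 cover of the mb1 KO cells at 0 h, so means of that group are also given without it.

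**Figure D1:**
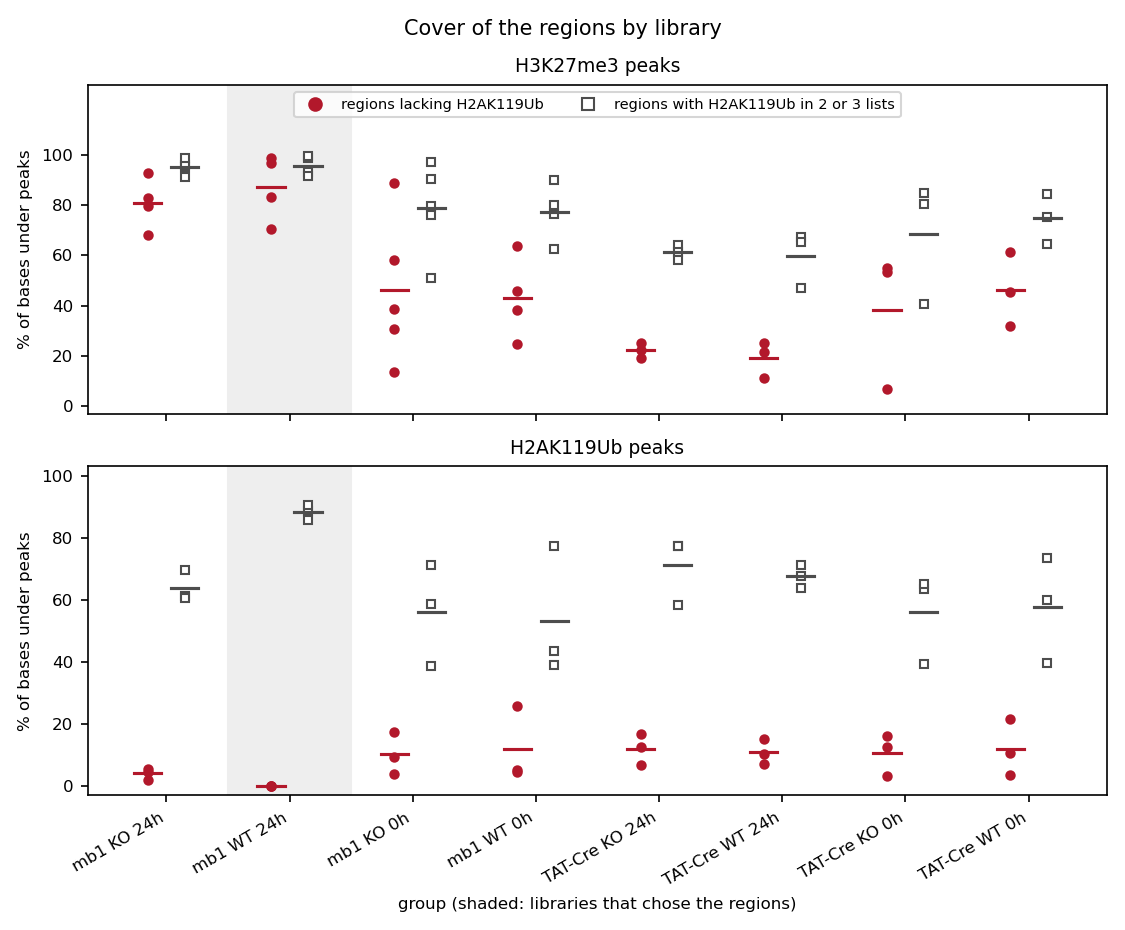
Share of bases under H3K27me3 peaks (top) and H2AK119Ub peaks (bottom) in each library, for the regions lacking H2AK119Ub (filled circles) and the regions with it (open squares), with lines at group means. The shaded mb1 WT 24h libraries chose the regions, and in every other library the circles lie below the squares. For H2AK119Ub the choice favours this order.

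Outside the cells that chose them, the regions were covered most by H3K27me3 in mb1 KO cells at 24 h and to a small share by H2AK119Ub in every group. In mb1 KO cells at 24 h, H3K27me3 peaks covered 68.2%, 79.6%, 82.7% and 92.9% of the bases. The mb1 WT libraries at 24 h, whose peaks made the rule, had 96.7%, 83.2%, 70.5% and 98.7%. H2AK119Ub covered 5.49%, 4.70% and 2.11% in mb1 KO cells at 24 h, against 0 in the mb1 WT cells by the rule. For H3K27me3, 3 of the 4 KO values lay within the WT range. Since the WT values are fixed by the choice, no genotype test was made in the mb1 cells at 24 h.

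At 0 h the H3K27me3 cover was lower and spread widely between libraries. It was 13.6%, 30.7%, 38.7%, 58.3% and 88.9% in mb1 KO cells and 45.7%, 24.7%, 38% and 63.7% in mb1 WT cells. The highest KO value belonged to replicate 5. H2AK119Ub covered 9.52%, 17.3% and 3.87% in mb1 KO cells and 4.47%, 25.8% and 5.19% in mb1 WT cells at 0 h, and the genotypes overlapped for both marks.

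The TAT cells had low H3K27me3 cover at 24 h. It was 25.2%, 19.3% and 22.2% in TAT KO cells and 25.3%, 11% and 21.7% in TAT WT cells. At 0 h it was 53.4%, 6.88% and 54.9% in TAT KO cells and 32.0%, 61.3% and 45.5% in TAT WT cells. The WT cells at 24 h lay below all WT cells at 0 h, while the KO cells overlapped between times through the low second library, which had one of the shortest lists (2017 peaks). H2AK119Ub covered 16.8%, 6.88% and 12.5% in TAT KO cells and 10.4%, 7.03% and 15.1% in TAT WT cells at 24 h, and 12.6%, 3.26% and 16.1% in TAT KO cells and 3.67%, 10.6% and 21.7% in TAT WT cells at 0 h.

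Set against the same library's autosomes, the regions were rich in H3K27me3 everywhere. Their cover exceeded the autosomal share in 25 of 25 libraries outside mb1 WT 24 h, by 5.88 to 14.0 times (median 11.8), and lay below that of the regions with H2AK119Ub in 25 of 25. For H2AK119Ub the cover exceeded the autosomal share in 20 of 21 libraries, by 0.63 to 3.38 times over all 21 (median 2.67). Regions with H2AK119Ub had 38.6% to 77.4% of their bases covered. With each list trimmed to the shortest of the mark by total signal, the order went with time. Mean cover at 24 h was 0.369% in mb1 KO, 0.702% in TAT KO and 0.319% in TAT WT cells. The autosomal shares were higher, at 1.30%, 1.27% and 1.08%. At 0 h it was 3.55% in mb1 KO, 4.49% in mb1 WT, 2.47% in TAT KO and 3.66% in TAT WT cells. The autosomal shares were lower, at 1.53%, 1.67%, 1.16% and 1.50%. Among libraries at 0 h only TAT KO replicate 2 lay below (0.692% against 0.732%). H3K27ac covered at most 0.0101% in any of 21 libraries, and 7982 regions were touched by it in none. The rule took bases with H3K27me3 and without H2AK119Ub or H3K27ac in mb1 WT cells at 24 h. That favours high H3K27me3 and low H2AK119Ub and H3K27ac here, so these values are a description.

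Read region by region, the lack of H2AK119Ub recurred in many but not all. No library of 21 had H2AK119Ub over at least 50% of the bases in 3041 of the regions (38%), against 58 of the regions with H2AK119Ub (0.86%). Both kinds were set by H2AK119Ub in mb1 WT cells at 24 h, which favours this difference. In 1045 regions (13.1%) not 1 bp was touched in any of the 21. At the other end, 291 regions (3.64%) were covered to 50% or more in at least 50% of the libraries, so for these the name fits the mb1 WT 24 h lists only. H3K27me3 covered at least 50% of a region in a median of 11 of 25 libraries, against 18 for regions with H2AK119Ub. It did so in all 25 libraries for 35 regions, against 908.

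The joint state was most frequent in mb1 KO cells at 24 h. There 7529 regions were covered to 50% or more by H3K27me3 in at least 2 libraries, and of these 70.1% were covered to 50% by H2AK119Ub in no library of the group and 2.22% in at least 2. Among regions with H2AK119Ub the same shares were 14.2% and 54.4%. The choice of both kinds by H2AK119Ub in mb1 WT cells at 24 h favours such a difference here and below. In TAT KO cells at 24 h 1322 regions met the H3K27me3 criterion, and 33.1% of them had H2AK119Ub in no library. In TAT WT cells at 24 h 1225 met it, and 30.9% of them had H2AK119Ub in no library. For regions with H2AK119Ub these shares were 1.68% in TAT KO cells and 2.04% in TAT WT cells. At 0 h 5188 regions met the H3K27me3 criterion in mb1 KO cells with replicate 5 included. It was met by 4216 in mb1 WT, 3093 in TAT KO and 3605 in TAT WT cells. Of these 54.0%, 42.2%, 46.4% and 43.9% in that order had H2AK119Ub in no library. For regions with H2AK119Ub the 0 h shares were 16.0%, 13.2%, 14.1% and 12.9%. The H2AK119Ub lists were longer in the TAT cells at 24 h (22904 to 29887 peaks in KO, 31872 to 37328 in WT) than in mb1 KO cells at 24 h (9334 to 23425), and the part of list length was not tested.

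The place in the stretch went with both marks. In mb1 KO cells at 24 h, H2AK119Ub covered 1.66% ± 1.42 of the bases of whole-stretch regions, 5.02% ± 1.87 of ends and 9.31% ± 3.28 of regions between peaks (SD, n = 3). H3K27me3 in mb1 KO cells at 0 h covered 33.1% ± 29.7, 52.7% ± 29.3 and 67.0% ± 26.1 in that order (SD, n = 5), and 21.2% ± 15.5, 42.3% ± 20.4 and 59.2% ± 22.3 without replicate 5 (SD, n = 4). The order of the 3 group means was the same in all 7 groups outside mb1 WT 24 h for each mark. Within single libraries the order held in 23 of 25 for H3K27me3 and 21 of 21 for H2AK119Ub. The places were themselves set by the H2AK119Ub and H3K27ac peaks of mb1 WT cells at 24 h. That favours this order for H2AK119Ub, so these values are a description.

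The regions held fewer genes than regions with H2AK119Ub. Protein-coding bodies made up 36.1% of their bases, against 45.2% in regions with H2AK119Ub and 40% over the autosomes, and 42.9% of the regions touched such a gene, against 61.3%. A region lay in the body of 2323 of 20665 autosomal protein-coding genes (11.2%), against 3574 (17.3%) for regions with H2AK119Ub, and 1173 genes had both kinds. A promoter window lay wholly in a region lacking the mark for 553 genes (2.68%), against 2061 genes (9.97%). The bodies of 255 genes were inside to 50% or more and of 101 genes entirely.

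The 15 genes with the most bases inside had a median length of 228 kb, and 8 of them had their promoter in a region with H2AK119Ub and 2 in a region lacking it. Among the 255 genes with at least 50% of the body inside, the median length was 5.48 kb, 131 (51.4%) had the promoter in a region lacking the mark and 15 (5.88%) in a region with it. Both groups were picked by their overlap, which favours long genes in the 15 and short genes with an included promoter in the 255, so these values are a description.

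Dock3, an activator of the GTPase Rac in neurons, is a 339506-bp gene at chr9:106892825-107232330 and had 206136 bp (60.7%) in the regions. Its promoter lay in a region with H2AK119Ub, and the region of 57617 bp in its body (chr9:106975582-107033198) was the second longest of the 8000. Over these bases of Dock3, H3K27me3 covered 72.1%, 83.7%, 82.2% and 99.4% in mb1 KO cells at 24 h, against 17.6%, 28.3%, 28.1%, 57.4% and 100% in mb1 KO cells at 0 h. The times overlapped through replicate 5 only. In mb1 WT cells at 0 h the cover was 50.7%, 41.5%, 43.8% and 63.4%. TAT cells at 24 h had 19.6%, 10.4% and 22.9% in KO cells and 28.4%, 20.7% and 22.0% in WT cells. At 0 h they had 63.7%, 14.7% and 62.0% in TAT KO cells and 49.3%, 72.7% and 48.7% in TAT WT cells, with no overlap between the times in WT. H2AK119Ub covered 5.43%, 2.69% and 0.71% of them in mb1 KO cells at 24 h and at most 26.7% in any library, that being TAT KO 24 h replicate 1. Within 1 kb of the start, by contrast, 24 of 24 libraries had an H2AK119Ub peak. They include the mb1 WT 24 h libraries, whose lists placed the promoter in a region with H2AK119Ub.

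**Figure D2:**
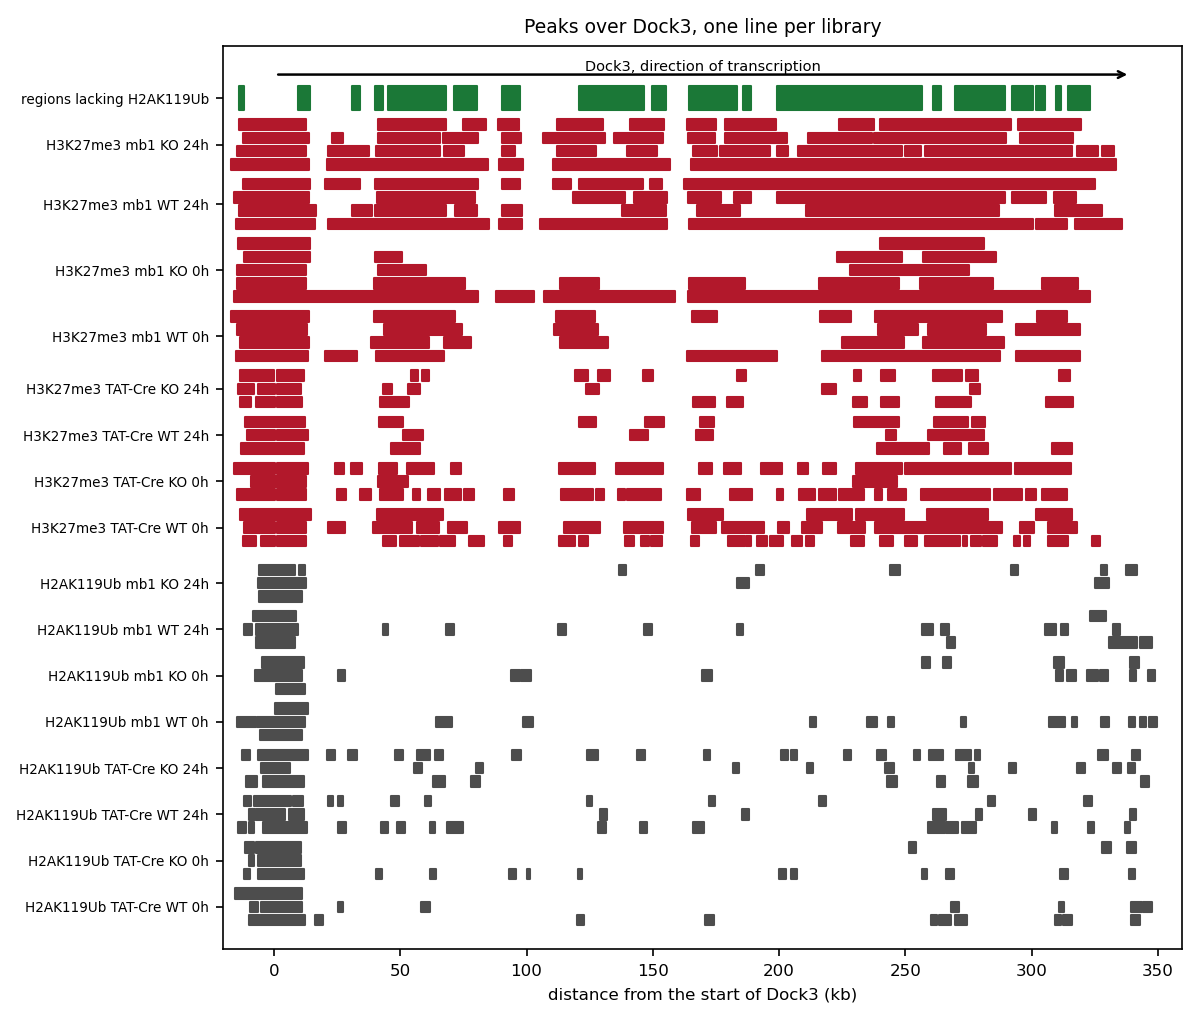
Peaks over Dock3 in each library, one line per library, against distance from the transcription start in kb. The top line shows the regions lacking H2AK119Ub in green, red marks H3K27me3 peaks and grey marks H2AK119Ub peaks. The body held 206136 bp of the regions, and the promoter lay in a region with H2AK119Ub.

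Other genes with much of their body inside were Gm11639 (110576 bp), Myo3b, a myosin of inner ear and retina (88989 bp), Iqsec1, an activator of the GTPase Arf6 (87845 bp), and Sdk1, an adhesion protein of retinal synapses (69223 bp). Chn1, a Rac inactivator of growing axons, had 60005 bp, Asic2, an acid-sensing ion channel, 57938 bp, and Bmp6, a ligand of the BMP pathway, 57475 bp. Unc13b, which primes synaptic vesicles, had 56358 bp and Syn2, a synapsin, 56241 bp. Myt1, a zinc finger factor of neural differentiation, differed from these in having most of a shorter body inside (56488 bp, 87.7%) together with its promoter. H3K27me3 covered 85.7%, 98.5%, 95.7% and 100% of the Myt1 bases in mb1 KO cells at 24 h, and 12.4%, 52.2%, 70.6%, 82.5% and 100% in mb1 KO cells at 0 h. In TAT cells at 24 h it covered 38.9%, 27.6% and 24.6% of the Myt1 bases in KO and 39.0%, 8.85% and 25.5% in WT, and at 0 h 67.4%, 0% and 73.9% in KO and 61.3%, 77.7% and 59.6% in WT.

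Of the 101 genes that lay wholly inside, the largest are described here. The longest region of all, 70054 bp at chr5:137885717-137955770, held the whole of Cyp3a13 (32678 bp), and H3K27me3 covered it in full in 4 of 4 mb1 KO libraries at 24 h. At 0 h Cyp3a13 had 0%, 63.0%, 44.2%, 100% and 100% in mb1 KO cells and 58.7%, 0%, 89.3% and 100% in mb1 WT cells. TAT cells at 24 h had 35.7%, 17.3% and 25.7% over Cyp3a13 in KO and 9.69%, 22.8% and 21.1% in WT. TAT cells at 0 h had 57.0%, 0% and 75.1% over Cyp3a13 in KO and 90.3%, 75.4% and 77.3% in WT. Others of this kind were Kcna10 (12579 bp), Oas1h (12085 bp) and Oas1d (6831 bp) of the oligoadenylate synthetase family, Olfr558, an olfactory receptor (9732 bp), and Ghsr (7885 bp). Osr1, a factor of kidney and heart development (7059 bp), Pax4, a factor of pancreatic beta cells (7007 bp), and Cyct, the testis cytochrome c (6512 bp), also belonged here. Over Kcna10, H2AK119Ub was 0 in every mb1 library, which the rule had fixed for mb1 WT cells at 24 h. At 24 h it was 0% in each of 3 TAT KO libraries, against 30.0%, 15.7% and 31.7% in TAT WT cells. The gene as such was not tested, and limma called 0.191% of all pieces for H2AK119Ub in this comparison. Over Ghsr, H2AK119Ub was 0 in 20 of the 21 libraries outside mb1 WT 24 h and 48.3% in TAT KO 24 h replicate 1.

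CpG content differed between the kinds of promoter. The 647 promoter windows in regions lacking H2AK119Ub had a median of 10 CG and 51.2% had 10 or more, against a median of 19 and 76.7% for the 2405 windows in regions with the mark and 14 and 57.9% for all 20085 windows. The dinucleotide CG reads the same on both strands and was counted once per position. The place in the stretch divided them further. The 453 windows in whole-stretch regions had a median of 14 CG, the 153 in ends 4 and the 41 between peaks 3. Promoter windows numbered 14.9 per Mb in the regions, against 46.2 per Mb in regions with H2AK119Ub and 8.16 per Mb over all autosomes.

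**Figure D3:**
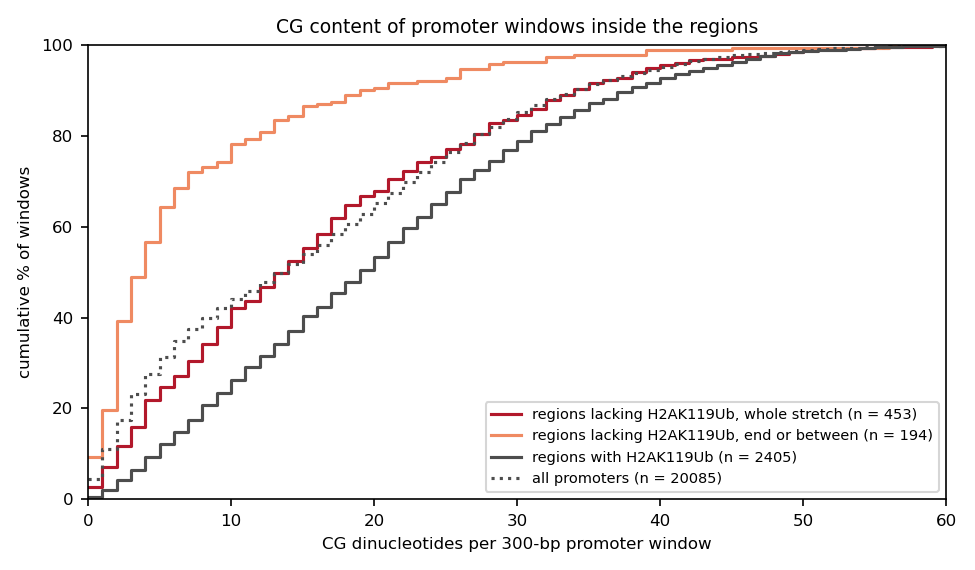
Cumulative share of promoter windows against the number of CG dinucleotides per 300-bp window, for whole-stretch regions and for ends and regions between peaks, both lacking H2AK119Ub, for regions with H2AK119Ub and for all promoters. The medians were 14 CG in whole-stretch regions, 19 with H2AK119Ub and 14 over all promoters.

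The CpG-rich promoters in the regions were seldom touched by H2AK119Ub peaks in cells that had not chosen them. An H2AK119Ub peak touched 0.604% to 19.6% (median 4.53%) of the 331 windows with 10 or more CG over the 21 libraries outside mb1 WT 24 h. That was below the share for CpG-rich windows in regions with H2AK119Ub (36.2% to 91.6%, median 78.4%) in 21 of 21 libraries, and below the share for all promoters (6.84% to 41.8%, median 29.3%) in 21 of 21. The 331 windows were chosen for lacking H2AK119Ub in mb1 WT cells at 24 h, and the windows in regions with H2AK119Ub for having it. That favours both orders, so these values are a description. H3K27me3 touched 5.44% to 98.5% of them (median 46.2%) over 25 libraries, against 5.25% to 24.4% (median 13.7%) for all promoters, and was below all promoters in 2 libraries. The group means for H3K27me3 were 95.7% in mb1 KO cells at 24 h, 35.7% in mb1 KO cells at 0 h (28.1% without replicate 5) and 29.0% in mb1 WT cells at 0 h. In TAT cells they were 42.0% in KO cells and 27.5% in WT cells at 24 h, and 38.8% in KO cells and 45.8% in WT cells at 0 h. Windows with 3 or fewer CG in the regions had H2AK119Ub in 1.2% to 23.4% (median 8.98%) of cases. The CpG-rich share lay below this CpG-poor share in 14 of 21 libraries. At 24 h its group mean was the higher in mb1 KO cells (4.83% against 2.99%) and TAT KO cells (13.4% against 10.2%). In the remaining groups outside mb1 WT 24 h it was the lower.

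**Figure D4:**
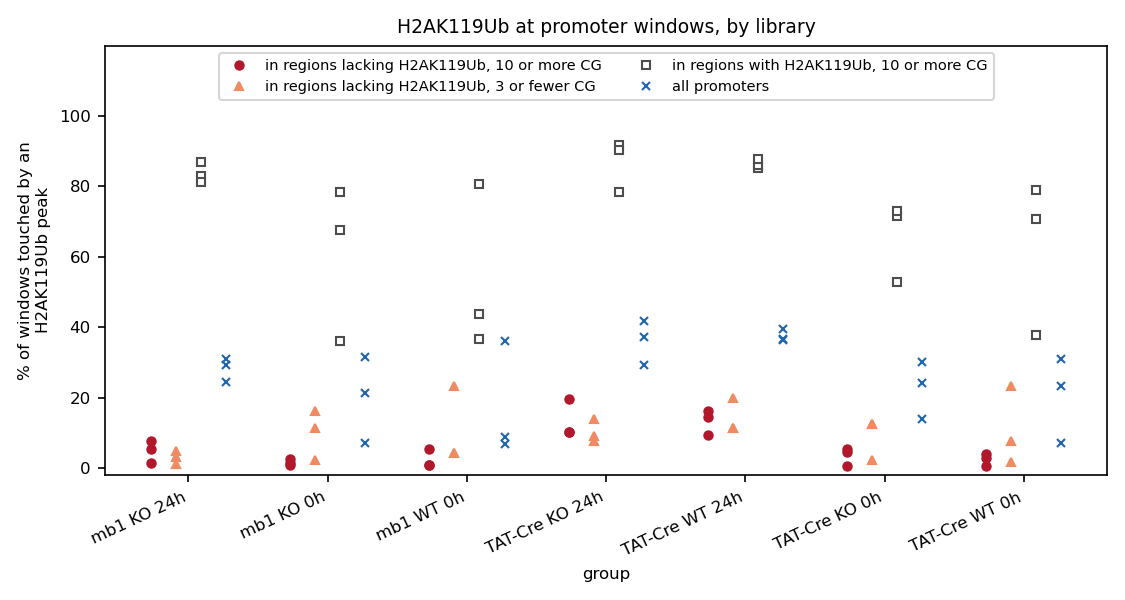
Share of promoter windows touched by an H2AK119Ub peak in each library outside mb1 WT 24 h, by group, for CpG-rich (10 or more CG) and CpG-poor (3 or fewer CG) windows in regions lacking H2AK119Ub, CpG-rich windows in regions with it, and all promoters. The CpG-rich windows of the regions lie at 0.604% to 19.6%, below all promoters in 21 of 21 libraries, an order that choosing them for lacking H2AK119Ub favours.

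Sema5b carried this lack of H2AK119Ub through every library outside mb1 WT 24 h. Its 22223 bp in the regions had no base under an H2AK119Ub peak in any of those 21 libraries, with a CpG-rich promoter inside. H3K27me3 covered 90.1%, 90.8%, 84.8% and 99.1% of them in mb1 KO cells at 24 h, against 0%, 24.4%, 27.6%, 28.3% and 66.9% in mb1 KO cells at 0 h, with no overlap between the times for Sema5b. In mb1 WT cells at 0 h the values were 22.3%, 0%, 0% and 28.4%. TAT cells at 24 h had 19%, 45.2% and 28.4% in KO cells and 45.5%, 20.4% and 0% in WT cells. TAT cells at 0 h had 43.3%, 0% and 0.81% in KO cells and 0%, 56.4% and 54.4% in WT cells over Sema5b.

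Developmental regulators, the best-known Polycomb targets, mostly had regions with H2AK119Ub. Of 76 developmental transcription factors, 20 (26.3%) had a region lacking H2AK119Ub in the body and 71 (93.4%) a region with it, and the promoter lay in the lacking kind for 2 and in the other for 42. Pax2, a factor of kidney and eye, had 39974 bp, Tbx5, of heart and forelimb, 21563 bp, Pax8, of thyroid and kidney, 21382 bp, and Gata4, of heart and endoderm, 19940 bp. Over all protein-coding genes 11.2% had a lacking region and 17.3% a region with the mark. Of 49 Wnt, Fgf and Bmp ligand genes 19 had the lacking kind and 33 the other, with promoters in the lacking kind for 3 and in the other for 22. Wnt3a, a ligand of the canonical Wnt pathway, had 26152 bp in the regions.

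Voltage-gated channel genes had the regions in the body most often among the lists. A longer body can hold a region more readily, and gene length was not taken into account in any list. The promoter lay in the lacking kind for 10 of the channel genes and in the other for 31. Of these 131 genes 54 (41.2%) had a region lacking H2AK119Ub and 55 a region with it, with Cacna1a, a calcium channel of presynaptic terminals, at 36570 bp, Cacng3 at 25065 bp, Cacna1c, a calcium channel of heart and smooth muscle, at 20993 bp and the sodium channel Scn8a at 19797 bp. Of 65 semaphorin, ephrin, netrin and slit guidance genes, which steer axons and vessels, 24 (36.9%) had one, and 11 had the promoter inside, among them Sema5b, while 30 (46.2%) had a region with H2AK119Ub and 23 the promoter in one. Sema4f had 15734 bp in the regions, and the ephrin receptors Epha6 and Epha10 had 14456 bp and 10209 bp. Of 90 clustered and classical cadherin genes 29 had a lacking region and 27 the other kind, led by Cdh22 (29594 bp). Collagen genes had 14 of 42 with each kind, led by Col8a1 (27143 bp), and glutamate and GABA receptor genes 9 against 17 of 44.

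In olfactory receptor, vomeronasal receptor and keratin genes the lacking kind was counted in more genes than the other kind, as in the cadherin and interleukin lists. It was not frequent there. Of all autosomal protein-coding genes 11.2% had the lacking kind, against 3.62% of olfactory receptor, 3.41% of vomeronasal receptor and 12.8% of keratin genes. Of 1104 olfactory receptor genes 40 (3.62%) had it and 8 had a region with H2AK119Ub. Of 352 vomeronasal receptor genes 12 had it and 3 the other kind, with Vmn2r27 at 20050 bp. Both families lie in clusters, so neighbouring genes can share a region. Of 109 keratin and keratin-associated protein genes 14 had it and 7 the other kind, and Krt1, a keratin of differentiated epidermis, lay wholly inside (5361 bp). Interleukin and chemokine genes had 14 against 12 of 133, with Il23r, the receptor of IL-23, at 15720 bp and Il1f5 wholly inside. Among metabolic and other families, the counts with a lacking region and with the other kind were 63 and 79 of 374 solute carrier genes, 10 and 13 of 93 cytochrome P450 genes, 28 and 33 of 388 zinc finger Zfp genes and 8 and 26 of 66 orphan receptor genes. They were 2 and 3 of 62 serpin genes and 1 and 2 of 62 C-type lectin and NK receptor genes.

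Genes of the B cells themselves had almost none. None of 20 B cell identity genes had a region of either kind. Both kinds leave out every base under an H3K27ac peak of mb1 WT cells at 24 h, which favours low counts in genes with H3K27ac. Of 22 activation and plasma cell genes 1 had a lacking region, Cd86, a costimulatory ligand, with 1589 bp. Other blood lineages had a few. Of 23 T cell genes 4 had a lacking region and 10 a region with H2AK119Ub. Those with the lacking kind included Bcl11b with 14490 bp, Cd4, the coreceptor of helper T cells, with 6846 bp, and Cd3e, a chain of the T cell receptor complex, with 1749 bp. Of 20 myeloid genes 3 had the lacking kind and 6 the other, with 7607 bp in Adgre1, which encodes the macrophage marker F4/80, and the whole bodies of S100a8 (964 bp) and S100a9 (3092 bp). None of 10 NK cell genes, 8 erythroid genes or 22 Polycomb subunit genes had a lacking region, and 1, 4 and 6 of them in that order had the other kind. Among the T cell and myeloid markers, Bcl11b, Cd4, Cd3e, S100a8 and S100a9 had no H3K27ac peak in any of 24 libraries.

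**Figure D5:**
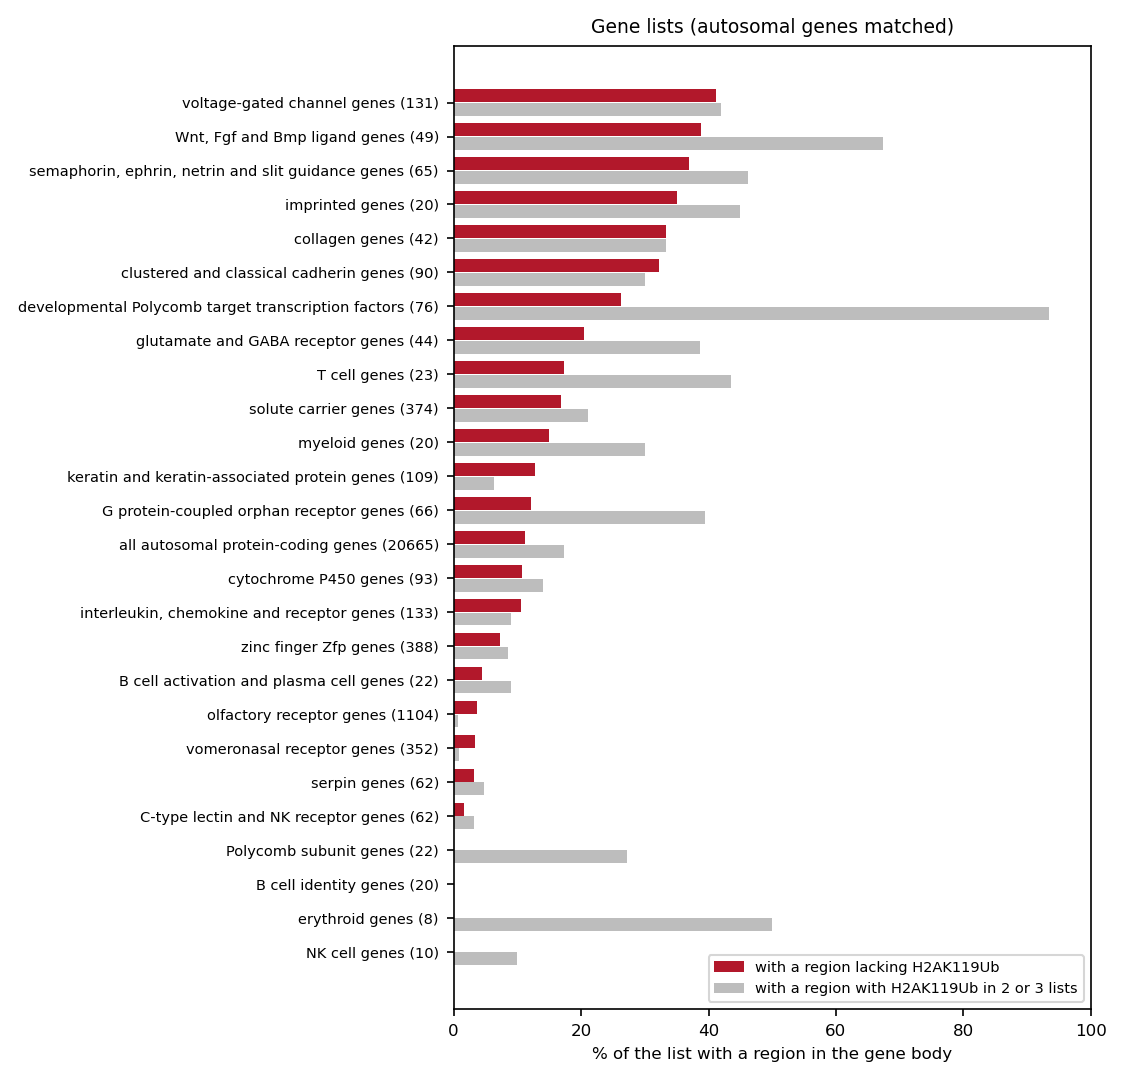
Share of the genes of each list with a region in the gene body, for regions lacking H2AK119Ub (red) and regions with it (grey). The number of autosomal genes matched stands beside each list. Voltage-gated channel genes are highest in red at 41.2%, and developmental transcription factors highest in grey at 93.4%. Gene length was not taken into account.

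S100a8 and S100a9, close neighbours on chromosome 3, differed in how often they carried H3K27me3. S100a9 was covered at 100% in 4 of 4 mb1 KO libraries at 24 h, in 4 of 5 mb1 KO libraries at 0 h (0% in replicate 1) and in 4 of 4 mb1 WT libraries at 0 h. S100a8 was covered at 100%, 100%, 22.5% and 100% in mb1 KO cells at 24 h, but in 1 of 5 mb1 KO libraries and 1 of 4 mb1 WT libraries at 0 h. Over S100a8 all 6 TAT libraries at 24 h had 0, while S100a9 had 37.8%, 0% and 34.1% in KO cells and 59.3%, 34.1% and 0% in WT cells. Outside mb1 WT 24 h, H2AK119Ub reached S100a9 in 1 library of 21 (26.6%, TAT KO 24 h replicate 2) and S100a8 in 1 (5.39%, TAT WT 24 h replicate 2).

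Bcl11b had more H3K27me3 cover at 24 h than at 0 h in the mb1 KO cells. Its 14490 bp had 100%, 95.4%, 93.7% and 97.2% H3K27me3 cover in mb1 KO cells at 24 h, against 0%, 0%, 44.9%, 44.9% and 44.9% in mb1 KO cells at 0 h, with no overlap for Bcl11b. These bases were chosen for H3K27me3 in mb1 WT cells at 24 h, which favours this direction. In mb1 WT cells at 0 h all 4 libraries had 0%. TAT cells at 24 h had 39.6%, 70.6% and 0% in KO cells and 64.3%, 41.2% and 0% in WT cells, and at 0 h 53.6%, 0% and 40.4% in KO cells and 0%, 71.9% and 62.2% in WT cells.

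Grb10 was the imprinted gene with the most bases, 19197 bp, and of 20 imprinted genes 7 had a lacking region and 9 a region with H2AK119Ub. H3K27me3 covered 75.8%, 100%, 100% and 100% of the Grb10 bases in mb1 KO cells at 24 h, and 0%, 75.8%, 57.2%, 75.8% and 100% in mb1 KO cells at 0 h. RefSeq gives it several starts, of which 1 lay in a lacking region and another in a region with H2AK119Ub. The remaining imprinted genes named were Zdbf2 (17862 bp), Kcnq1 (7060 bp) and Gnas (5472 bp).

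Genotype was tested region by region with limma, on the share of each piece under peaks, over all pieces of 1 kb or more and without the mb1 WT 24 h libraries. The comparison asks whether loss of Xist moved a mark on autosomes. Tested were 7869 of the 8000 regions for H3K27me3 and 4961 for H2AK119Ub, the ones where 3 or more of the libraries fitted had a peak. A region was called at a Benjamini-Hochberg adjusted p under 0.05 over all pieces. In mb1 cells at 0 h, KO against WT, limma called 0 regions for H3K27me3 (0% of all pieces called) and 0 for H2AK119Ub (0% of all pieces). At an unadjusted p under 0.05 were 196 of 7869 and 70 of 4961. In the TAT cells at 0 h, before TAT-Cre, it called 0 for H3K27me3 and 0 for H2AK119Ub (0% of all pieces for each). There 270 of 7869 and 90 of 4961 had an unadjusted p under 0.05. The unadjusted counts are not corrected for the number of regions tested and are not calls. The exact test of presence called 0 in each, and with 3 libraries against 3 it cannot call any, its smallest p being 0.1. Leaving out mb1 KO 0 h replicate 1 or 5 gave 2 and 3 regions for H3K27me3, leaving out TAT 0 h WT replicate 1, KO replicate 2 or KO replicate 3 gave 4, 10 and 1, and leaving out TAT WT 0 h replicate 2 gave 1 for H2AK119Ub.

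In TAT cells at 24 h a few regions differed by genotype. For H3K27me3, 3 regions were lower in KO cells and none higher (0.0914% of all pieces called, a larger share than the regions'). The region in Otx2, a homeobox factor of the forebrain (chr14:48657477-48661991), had 5.40%, 0% and 56.4% in TAT KO cells, against 100% in each of 3 TAT WT libraries (limma adjusted p = 0.0151). The region in Dlg2, a scaffold of synapses (chr7:90484645-90488301), had 15.1%, 12.7% and 0% in KO cells and 100%, 98.2% and 100% in WT cells (adjusted p = 0.000158). The third lay in 4921504E06Rik, with 0%, 12.8% and 0% in KO cells and 100% in each WT library. With libraries left out, 13 regions were called without TAT KO 24 h replicate 3, 8 without TAT WT replicate 2, 6 without TAT WT replicate 3 and 5 without TAT KO replicate 1 or 2.

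For H2AK119Ub in TAT cells at 24 h, 8 regions were higher and 6 lower in KO cells (0.191% of all pieces called, 0.106% higher and 0.0841% lower). The region in Il1r1, the interleukin 1 receptor (chr1:40249332-40250903), was covered at 100% in each of 3 KO libraries and 0% in each of 3 WT libraries (adjusted p = 0.0109). The region in Tll2, a tolloid-like metalloprotease, had 58.6%, 46.8% and 66.8% in KO cells and 0% in each WT library. Lower in KO cells were the regions in Kcnip3, a calcium-binding partner of potassium channels, with 5.23%, 0% and 0% against 97.6%, 100% and 100% in WT cells, and in Ebf4, of the early B cell factor family, with 0% in each KO library against 68.4%, 64.9% and 65.7% (adjusted p = 0.00758). Leaving out TAT KO replicate 2 gave 54 regions, 48 of them higher, leaving out TAT WT replicate 2 gave 27 and leaving out TAT WT replicate 3 gave 24. With each list trimmed to the shortest of the mark by total signal, the count was 1.

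Time was tested in the KO cells of the mb1 system and the WT cells of the TAT-Cre system, which share no library. In mb1 KO cells, 986 regions were higher in H3K27me3 at 24 h than at 0 h and 0 lower (8.61% of all pieces called, 12.5% of the regions tested). The median difference was 31.7 points over the regions tested and 22.0 points over all pieces. All pieces were chosen for H3K27me3 at 24 h in the WT cells, which favours this direction. The 24 h lists were longer, with 8762 to 13380 peaks in mb1 KO cells against 1955 to 7117 at 0 h, and the part of list length in the count was not tested. On lists trimmed to equal length 88 regions were called, 81 higher and 7 lower.

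The 986 regions were covered at 86.6% ± 7.23 in mb1 KO cells at 24 h (SD, n = 4) and 8.11% ± 16.4 at 0 h (SD, n = 5). Replicate 5 had the highest 0 h value, 37.4%, and without it the 0 h mean was 0.801% ± 0.762 (SD, n = 4). Groups that did not enter the contrast had 4.71% ± 3.45 in mb1 WT cells at 0 h (n = 4), 15.7% ± 5.80 in TAT KO cells at 24 h, 4.40% ± 1.99 in TAT WT cells at 24 h, 23.4% ± 20.3 in TAT KO cells at 0 h and 26.4% ± 21.9 in TAT WT cells at 0 h (SD, n = 3 each). Of them 614 were whole stretches, 331 ends and 41 between peaks, and 50.9% touched a protein-coding gene. The regions in Jph2, which ties membranes of heart muscle (chr2:163336998-163343184), and in Prss50, a protease of the testis (chr9:110858743-110860283), were covered at 100% in 4 of 4 libraries at 24 h and 0% in 5 of 5 at 0 h (adjusted p = 1.83e-08). The region in Vangl1, of planar cell polarity, had 98.3%, 100%, 100% and 99.2% at 24 h and 0% in 5 of 5 at 0 h. Without 24 h replicate 4 the count was 538, without 24 h replicate 2 or 3 it was 636 and 629, without 0 h replicate 1, 2 or 3 it was 641, 627 and 631, and without 0 h replicate 5, the library with conflicting labels, it was 2224.

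In TAT WT cells, 9 regions were lower in H3K27me3 at 24 h than at 0 h and 0 higher (0.142% of all pieces called, close to the share of the regions), with a median difference of -25.6 points over the regions tested and -22.6 over all pieces. On trimmed lists 9 regions were lower and 5 higher, and the median over the regions tested was -4.25 points. The region in Cntn4, a neuronal adhesion protein (chr6:106668968-106673040), had 0% in each of 3 libraries at 24 h and 100%, 100% and 89.2% at 0 h (adjusted p = 0.0329). The region in Gm4952 had 0% in each library at 24 h and 100% in each at 0 h. Over the 9 regions H3K27me3 covered 96.9% ± 2.91 in mb1 KO cells at 24 h (SD, n = 4) and 92.6% ± 8.71 at 0 h (SD, n = 5), or 90.8% ± 8.87 without replicate 5 (n = 4). Without TAT WT 0 h replicate 1, 2 or 3 the counts were 24, 2 and 4, and without 24 h replicate 2 the count was 1. Here the WT lists at 24 h held 3981 to 5798 peaks, against 3905 to 19074 at 0 h, and the part of list length was not tested.

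The difference between the pair of time effects was itself tested with a limma interaction contrast added after seeing the data. For H3K27me3 it called 759 regions, each with the larger difference in mb1 KO cells (7.26% of all pieces called, 9.65% of the regions tested). For H2AK119Ub it called 1 (0.0336% of all pieces). All pieces were chosen for H3K27me3 in mb1 cells at 24 h, which favours this direction. The H3K27me3 lists were longer at 24 h than at 0 h in mb1 KO cells, unlike those in TAT WT cells, and the part of this was not tested. The contrasts also differ in system, genotype and TAT-Cre, which cannot be told apart.

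More of the regions called for H2AK119Ub were lower than higher at 24 h in both systems, and the sets of lower regions overlapped. In mb1 KO cells 148 regions were lower and 4 higher at 24 h (4.06% of all pieces called, 3.06% of the regions tested), and in TAT WT cells 84 were lower and 18 higher (2.52% of all pieces, 2.06% of the regions tested). Over all pieces 2.72% were lower and 1.34% higher in mb1 KO cells, where the share of lower regions, 2.98%, was thus near the background. In TAT WT cells 1.09% of all pieces were lower and 1.42% higher, against 1.69% and 0.363% of the regions. The lack of H2AK119Ub at 24 h in mb1 WT cells was the rule, which favours the lower calls at 24 h. Regions lower in both numbered 70, which is 47.3% of the 148 and 83.3% of the 84. Over all pieces 155 were lower in both, which is 32.0% of the 485 lower in mb1 KO cells and 79.5% of the 195 lower in TAT WT cells.

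Over these 70 regions H2AK119Ub covered 2.16% ± 1.02 in mb1 KO cells at 24 h and 94.8% ± 3.44 at 0 h, and 11% ± 8.07 in TAT WT cells at 24 h and 94.3% ± 2.69 at 0 h (SD, n = 3 each). The groups outside both contrasts had low cover at 24 h and high cover at 0 h, with 16.2% ± 7.44 in TAT KO cells at 24 h, 79.1% ± 20.5 in TAT KO cells at 0 h and 94.4% ± 3.74 in mb1 WT cells at 0 h. H3K27me3 covered them in the mb1 system at both times, at 83.3% ± 12.7 in KO cells at 24 h (n = 4) and 78.5% ± 24.9 at 0 h (n = 5), or 73.2% ± 25.3 without replicate 5 (n = 4). In TAT WT cells it was 30.0% ± 12.3 at 24 h and 71.5% ± 12.7 at 0 h (SD, n = 3 each). Of the 70, 24.3% touched a protein-coding gene, against 42.9% of all 8000, and 41 were ends, 18 between peaks and 11 whole stretches.

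The 5 leading regions were the same in both systems and lay between genes. That at chr9:11476257-11482585, 571 kb from the nearest protein-coding gene Cntn5, had H2AK119Ub at 0% in each of 3 mb1 KO libraries at 24 h and 100% in each of 3 at 0 h (limma adjusted p = 3.35e-05), and the same 0% and 100% in the 3 TAT WT libraries of each time (adjusted p = 5.42e-05). That at chr19:14266728-14272863, 175 kb from Tle4, a corepressor gene, had 0% in each mb1 KO library at 24 h against 100% in each at 0 h, and 13.4%, 0% and 0.49% in TAT WT cells at 24 h against 100% in each at 0 h. The 3 others lay 17.9 kb from Asrgl1, 60.1 kb from Fam107b and 174 kb from Spats2l.

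The few regions higher in H2AK119Ub at 24 h in mb1 KO cells all lay in protein-coding genes. The region in Sgk2, a kinase of the glucocorticoid-induced family (chr2:162983679-162987689), had 96.5%, 100% and 81.0% at 24 h and 0% in each library at 0 h (adjusted p = 0.00312), and the others were in Tbc1d8, Ces4a, a carboxylesterase, and Ngef. In TAT WT cells the regions in Kcnip3 and Ebf4 were higher at 24 h. Their 24 h values are those of the WT libraries in the genotype comparison above, so the comparisons share those libraries, and TAT WT cells at 0 h had 0% in each library for both. Without mb1 KO 0 h replicate 2 the count in mb1 KO cells was 90, and without TAT WT 0 h replicate 1, 2 or 3 the count in TAT WT cells was 66, 46 and 53. On trimmed lists the counts were 180 in mb1 KO cells (175 lower) and 179 in TAT WT cells (178 lower).

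H3K27ac gave almost nothing to test. Only 4 of the 8000 regions had an H3K27ac peak in at least 3 libraries of the fit. None was called in any of the 5 comparisons by limma or by the exact test, and 1 reached an unadjusted p under 0.05, in mb1 KO cells between the times. Over all pieces tested for H3K27ac, 11.6% were called in that comparison, 0.61% between the times in TAT WT cells and 0% in each genotype comparison.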

How the data were processed

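The submitters' processing notes name Trimmomatic 0.32, Bowtie2 2.3.4.1, Picard and deepTools 3.5.1, with the build mm10. SEACR with its norm and relaxed settings is known from the list names; its version, its control and any scaling by the yeast spike-in were left unstated. Each of the 77 deposited lists, 1 per library, gives each peak's position and its total and highest signal, a sum of coverage. Signal was used only to rank peaks within a list.

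Positions are 1-based on mm10, on 19 autosomes. Peaks were intersected with Python 3.11.15, numpy 2.4.6 and pandas 2.3.3, and figures drawn with matplotlib 3.10.9. Cover is the share of bases under peaks. Genes and promoter windows came from RefSeq tables of GRCm38.p6. Per piece, cover was tested with limma 3.58.1 in R 4.3.3 (groups as cell means, robust empirical Bayes, two-sided, Benjamini-Hochberg adjustment over all pieces with a peak in at least 3 libraries, threshold 0.05), leaving out the mb1 WT 24 h libraries that chose the regions. The code was tested on simulated data. An exact test of presence was the other tool; with 3 libraries against 3 its smallest two-sided p is 0.1. Alternatives covered the rule, list length, the filter, left-out replicates and a replicate block.

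The regions, the gene lists and the tests were chosen with earlier results of these data known. Named genes were the longest regions, the genes with most bases or the largest share inside, up to 4 per list and up to 5 called regions per direction. Some that the rule selects are not printed. The promoter windows printed were chosen after their values were seen.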

Additional observations from a re-analysis of the deposited data

Results flagged for a closer look

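By a limma interaction contrast, added after seeing the data, 759 of the 7869 regions tested for H3K27me3 had a larger 24 h minus 0 h difference in mb1 KO cells than in TAT WT cells and 0 a smaller one (adjusted p under 0.05, with 7.26% of all pieces called). The median of that difference of differences was 59.3 points over the regions tested and 51.3 over all pieces. All pieces were chosen for H3K27me3 in mb1 cells at 24 h, which favours this direction, and list lengths moved differently with time in the 2 systems, whose part was not tested. The pair of contrasts also differ in system, genotype and TAT-Cre, which cannot be told apart. For H2AK119Ub the same contrast called 1 of 4961 regions, with a smaller difference in mb1 KO cells (0.0336% of all pieces called). In the 8 groups of 4 to 10 libraries and measures that could be checked, 0 libraries stood apart from the rest of their group.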

How the results depend on the processing

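The number of regions was 4573 with all 4 H3K27me3 lists required, 12152 with 2, 4330 with the upper 50% of each list by signal and 2397 with whole stretches only, and 4652 to 9225 with a library of the rule left out. The share in protein-coding genes was 39.8% with the upper 50% and 39.1% with no H2AK119Ub or H3K27ac peak in any WT list (36.0% to 36.6% with a library left out). Mean H3K27me3 cover was 16.7% on trimmed lists (42.3% to 52.7%), H2AK119Ub cover 2.22% on trimmed lists and 1.79% with no peak in any WT list (10.2% to 12.3%), and H3K27ac cover 0.00214% to 0.00332%.

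Counts of called regions moved most. For H3K27me3 they were, for genotype in mb1 cells at 0 h, 1 without lists under 3000 peaks, 3 without the shortest KO list and replicate 5, and 3 with replicate 5 at 24 h (left-out libraries 0 to 3). For genotype in TAT cells at 24 h they were 5 on trimmed lists, 0 by the exact test and 63 by presence of 1 bp (4 to 13), and at 0 h 10 without lists under 3000 peaks (0 to 10). For time in mb1 KO cells they were 88 on trimmed lists, 0 by the exact test, 634 without short lists, 1655 without the shortest list and replicate 5, and 2783 with replicate 5 at 24 h (538 to 2224). For time in TAT WT cells they were 14 trimmed (5 higher, 9 lower) and 0 exact (1 to 24).

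For H2AK119Ub they were 6 on trimmed lists for genotype in mb1 cells at 0 h (0 to 0), 1 trimmed, 0 exact and 36 by 1 bp in TAT cells at 24 h (17 to 54), and 4 trimmed and 3 without short lists in TAT cells at 0 h (0 to 1). For time they were 0 exact in mb1 KO cells (90 to 134), and 179 trimmed, 0 exact and 57 without short lists in TAT WT cells (46 to 107). For H3K27ac the range was 0 to 1 for time in mb1 KO cells and 0 to 0 elsewhere. The causes were not tested. The settings on short lists and on replicate 5 with the shortest list were chosen after seeing the data.

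The labels do not say whether replicate numbers pair the libraries, and the fits above took them as unpaired. In no comparison did every pair's deviations correlate above 0.1, though single pairs reached 0.308. So few pairs cannot decide the question. With the replicate block the H3K27me3 counts were 1 for genotype in mb1 cells at 0 h, 0 in TAT cells at 24 h, 0 in TAT cells at 0 h, 1128 for time in mb1 KO cells and 70 in TAT WT cells. The H2AK119Ub counts with the block were 0, 0 and 0 for genotype, 125 for time in mb1 KO cells and 0 in TAT WT cells. An absent peak is not an absent mark, and without read depths no limit of detection can be given.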

Other observations

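The regions were not spread evenly. They took 1.16% of chromosome 10 and 2.52% of chromosome 9. Per base of regions with H2AK119Ub, chromosome 14 had 1.36 bases of regions lacking it and chromosome 11 had 0.547.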
